A study of Mus musculus with 16 samples.

Results

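The question addressed here was whether the muscle of mice on a high-fat diet (HFD) answered a bout of maximal running differently from the muscle of mice on a control diet (CON). The measure was the interaction of diet and exercise, that is the response in HFD mice (HFD-post minus HFD-pre) minus the response in CON mice (CON-post minus CON-pre). Expression was given as FPKM, a fragment count scaled to the length of the transcript and to the number of mapped fragments. All genes whose FPKM averaged 0.5 or more over the 16 libraries were tested, which kept 11256 of 23970 gene symbols. Values are on the log2(FPKM + 0.5) scale, which understates the change of low genes, and a positive value means a larger rise or a smaller fall in HFD mice.

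Quadriceps, the large muscle at the front of the thigh, was taken from male C57BL/6NTac mice with a labelled age of 16 weeks, and its polyA RNA was sequenced. Each diet had 4 libraries before exercise (CON-pre and HFD-pre) and 4 after it (CON-post and HFD-post), where post means 3 h after a treadmill test run to exhaustion. The pre groups were other mice, which had the same treadmill acclimatisation and fasting but did not run, so that a response is a difference between animals and each p-value measures the spread between mice. Strain, sex and tissue were shared by all groups, and muscle was taken under isoflurane anaesthesia. Total FPKM ranged from 283575 to 329282, and all 8 skeletal muscle markers examined, among them Ckm and Acta1, were expressed, with summed FPKM of between 56081 and 79280. In whole muscle, fewer cells of a type and less RNA per cell cannot be told apart.

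Running switches on early response genes in muscle, which encode transcription factors of the AP-1, Egr and NR4A families and act within minutes to hours. They are followed by genes for mitochondrial biogenesis, governed by the coactivator PGC-1α (Ppargc1a), and for the use of fat as fuel, many of them targets of the PPAR nuclear receptors. A diet rich in fat engages the same PPAR targets at rest and lowers the programme of fatty acid synthesis that is driven by SREBP-1c (Srebf1).

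No gene passed the test of the interaction. At a limma adjusted p under 0.05, 0 of 11256 genes (0%) were called, and the lowest adjusted p was 0.926. Without adjustment, 356 genes (3.16%) had a p under 0.05, of which 238 (2.11% of the genes tested) were positive and 118 (1.05%) negative. As a proportion, the 356 genes lay below the 0.05 that such a threshold passes on average where no gene has an interaction. The balance of signs followed the scaling of the libraries, with 200 positive and 188 negative genes after upper-quartile scaling, 192 and 195 after median-of-ratios scaling and 168 and 216 after quantile normalisation. It also followed single libraries, since 360 genes were positive without CON-post replicate 2 and 198 were negative without CON-post replicate 1.

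The interaction was small for most genes. Its median was 0.04, with quartiles of -0.07 and 0.14, and 82.7% of genes lay within 0.25 of 0. The median was 0.0024 without CON-post replicate 1 and 0.0686 without CON-post replicate 2, and it turned to -0.0009 after quantile normalisation. An absolute value of at least 0.5 was found in 3.46% of genes and of at least 1 in 79 genes, 51 positive and 28 negative. A positive sign was found in 6782 genes (60.3%), but in 52.2% after upper-quartile scaling, 50.6% after median-of-ratios scaling and 49.8% after quantile normalisation. The median standard error was 0.18, against 0.12 for the response in a single diet, so that a typical gene had a 95% interval of 0.37 to either side. For 10410 genes (92.5%) the whole interval lay within 1 of 0. This is a doubling or a halving between diets of the response ratio of FPKM + 0.5, which in low genes can understate the ratio of FPKM. For the other genes the interval reached further. In proportion to its standard error the interaction was also less spread (SD of the ratio 0.940) than the response in CON (1.46) or in HFD (1.37).

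Precision followed expression. The median standard error was 0.243 among genes of 0.5 to 1 FPKM and 0.123 among genes of at least 100 FPKM. The share of genes with an unadjusted p under 0.05 was between 1.80 and 3.74% in all 5 classes of expression. Of the 79 genes with an absolute interaction of at least 1, 44 were listed at 0 in at least 1 library, 25 had symbols starting with Snor or Mir, which name small RNAs (all 25 of them at 0 in some library), and 54 had an interval that held 0. The extremes, Snora28 at -7.39 and Mir3107 at 7.94, were such small RNA entries, in which an estimate of 0 can be a failed one. Only 17 of the 79 had an interval without 0 and were never listed at 0, 8 positive and 9 negative, and 5 of the 79 were exercise-responsive in the sense used below (Fos, Otud1, Xirp1, Tnfrsf12a and Csrnp1).

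**Figure D1:**
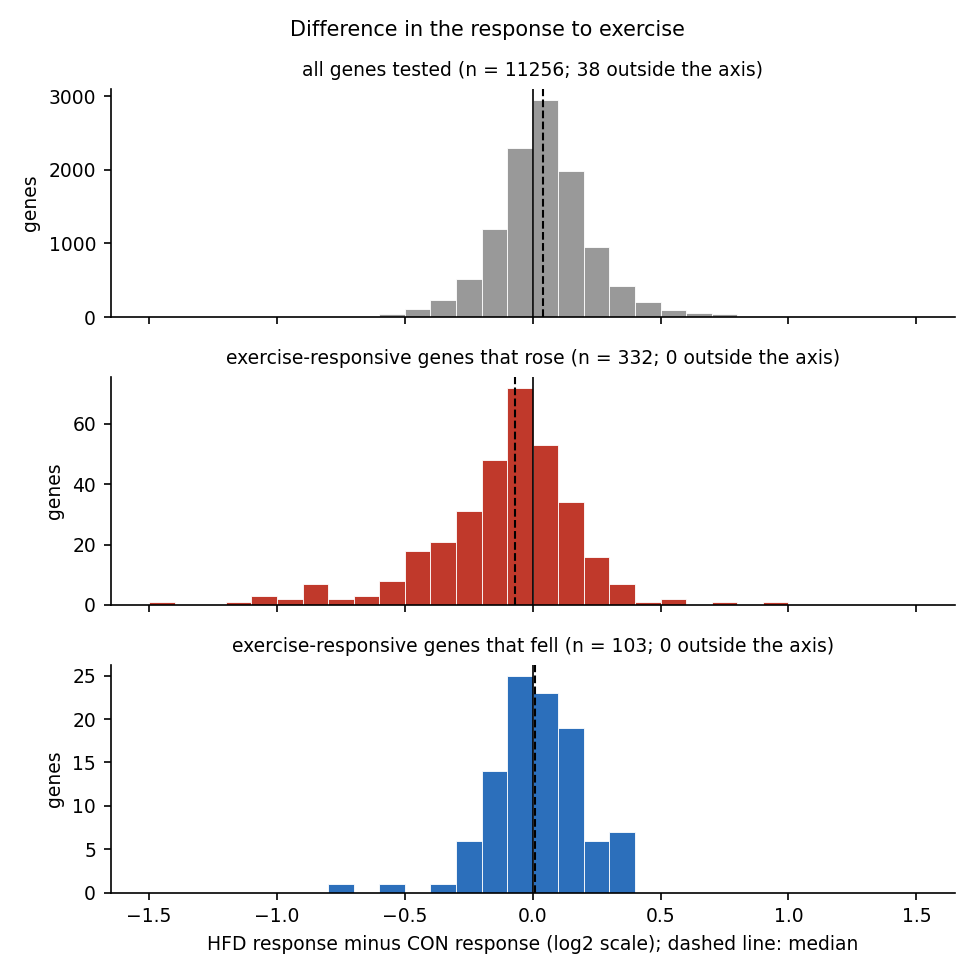
Histograms of the interaction (HFD response minus CON response, log2 scale, in bins of width 0.1) for all 11256 genes tested (top; 38 lie beyond 1.5 in either direction), for the 332 exercise-responsive genes that rose (middle) and for the 103 that fell (bottom). The y axes count genes and the dashed lines mark the medians, which lie at 0.04, -0.07 and 0.01.

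The genes that exercise moved were then compared between diets. They were chosen by the mean of both responses. With 4 libraries in each group and the same spread in all groups, this mean is uncorrelated with their difference. Where the spread differs between groups, the choice can favour the diet of wider spread. It also favours genes of small spread between mice, and the interaction p uses that same spread. The size of these effects was not examined. At a limma adjusted p under 0.05, 435 genes (3.86%) were exercise-responsive, of which 332 (2.95%) rose and 103 (0.915%) fell. In 272 of the 435 (62.5%) the response was smaller in HFD than in CON mice, against 49.6% of all genes tested. Both shares are counted in the direction of the mean response of each gene. In that direction the medians of the 435 were 0.44 in CON and 0.38 in HFD. All 435 responses had the same sign in both diets, as the choice by their mean favours. The major-axis slope of the HFD response against the CON response across these genes was 0.84. Among the genes that rose, 217 of 332 (65.4%) had the smaller rise in HFD, with medians of 0.49 and 0.40. Among the 35 that rose by at least 1, 28 (80.0%) did so, with medians of 1.49 and 1.16. Of the falls, 55 of 103 (53.4%) were smaller in HFD, with medians of -0.37 and -0.34. This majority depended on the processing, with 42 of 103 after upper-quartile scaling, 41 after median-of-ratios scaling, 47 after quantile normalisation, 46 with an adipocyte score as a covariate and between 36 (without CON-post replicate 1) and 70 (without CON-pre replicate 4) as libraries were left out.

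Among the 435 genes, 46 (10.6%) had an unadjusted interaction p under 0.05, against 3.16% of all genes, and in 39 of these the response was the smaller in HFD. Intervals within 1 of 0 were found for 391 (89.9%), and no gene had a response larger in HFD by 1 or more, while 5 had one smaller by 1 or more. These counts describe genes that share libraries and are not independent of each other. With the 435 genes held fixed, between 54.0% (235 genes, without CON-post replicate 1) and 68.5% were smaller in HFD when 1 library at a time was left out. With the genes chosen anew, their number fell to 246 when CON-pre replicate 1 was left out, to 279 in the absence of HFD-pre replicate 2 and to 289 in that of HFD-pre replicate 1, and the share smaller in HFD was 46.3% (224 of 484) without HFD-pre replicate 4. The mean of the 435 genes, each centred and signed by its exercise effect, was -0.287 ± 0.084 (SD, n = 4) in CON-pre, 0.282 ± 0.059 in CON-post, -0.236 ± 0.050 in HFD-pre and 0.242 ± 0.048 in HFD-post. The HFD groups thus lay inside the CON groups at both ends, by amounts below the SD of CON-pre.

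**Figure D2:**
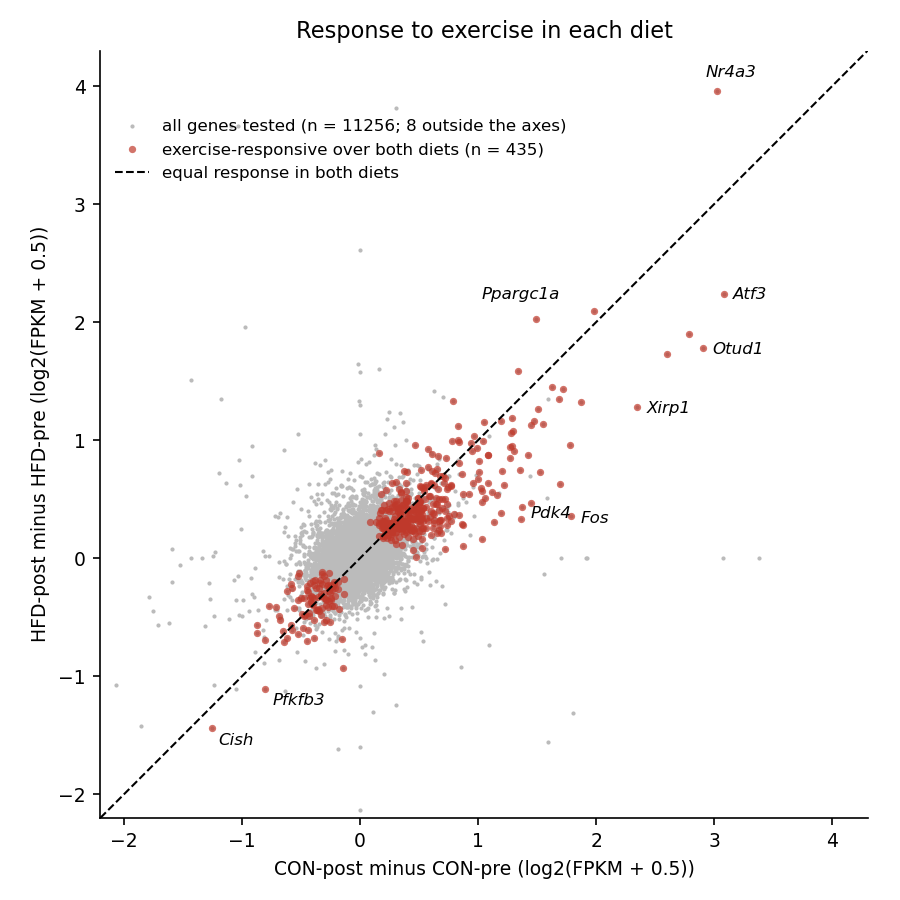
Response to exercise in HFD mice (y axis) against that in CON mice (x axis), each on the log2(FPKM + 0.5) scale, for 11256 genes (grey; 8 lie outside the axes) and 435 exercise-responsive genes (red). The dashed line marks equal responses; 272 of the 435 red genes have the smaller response in HFD, and Nr4a3 stands above the line while Fos, Otud1 and Xirp1 stand below it.

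Each diet was also tested alone. The response in CON passed the test for 125 genes (1.11%) and that in HFD for 61 (0.542%). Of the 83 genes called in CON only, 81 had a response of the same sign in HFD, with medians of 0.72 in CON and 0.34 in HFD, and 38 of them had an unadjusted interaction p under 0.05. Of the 19 called in HFD only, 18 had the same sign in CON, with medians of 0.31 and 0.65. The 42 called in both had medians of 1.00 and 0.91. As the genes of the first 2 classes were chosen by a high value in 1 diet, their gap between diets is a description only, and a call in 1 diet alone is no test of a difference between diets.

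The 39 exercise-responsive genes that were smaller in HFD at an unadjusted p under 0.05 were described at each time point. In 36 of them HFD-pre already lay further in the direction of exercise than CON-pre, in 35 HFD-post lay behind CON-post, and both held in 32. The median difference between diets, in the direction of exercise, was 0.30 before and -0.31 after exercise, and the larger part of the interaction lay before exercise in 19 and after it in 20. As the interaction is by construction the second difference minus the first, and chose these genes, the signs of the medians are largely set by the choice, and the difference between diets was not tested for them at either time.

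Among the PPAR target genes, the interaction was lowest in Acot2. Acot2, which encodes a mitochondrial acyl-CoA thioesterase and lies on chromosome 12 (GRCm38 83987861 to 83993877), had FPKM of 1.89, 1.99, 2.77 and 3.40 in CON-pre, 6.53, 7.97, 8.63 and 7.25 in CON-post, 6.12, 4.96, 6.48 and 7.05 in HFD-pre, and 9.54, 8.69, 9.43 and 7.03 in HFD-post. All CON-pre libraries lay below every other library, while HFD-pre reached the range of CON-post. The response was 1.45 in CON (limma adjusted p = 6.77e-05) and 0.46 in HFD (adjusted p = 0.236), with an interaction of -0.98 ± 0.22 (SE; 95% interval -1.44 to -0.53; adjusted p = 0.926). Acot2 has a close paralogue, Acot1, between which reads may have been split, and the interaction of Acot1 was 0.09.

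Pdk4, the kinase that shuts down pyruvate dehydrogenase when fat is burned, also had the smaller response in HFD. Its FPKM were 146, 159, 234 and 288 in CON-pre, 530, 555, 518 and 469 in CON-post, 240, 335, 386 and 302 in HFD-pre, and 502, 531, 405 and 292 in HFD-post. The CON groups did not overlap, whereas HFD-post replicate 4 fell among the HFD-pre libraries. The response was 1.38 in CON (limma adjusted p = 0.0021) and 0.44 in HFD, and the interaction was -0.94 ± 0.30 (SE). Ucp3, the muscle uncoupling protein, had responses of 0.87 and 0.28 and an interaction of -0.59, and Mlycd, which degrades malonyl-CoA, of 0.52, 0.23 and -0.30. Over the list of fatty acid uptake, lipid droplet and other PPAR target genes, 12 of 22 rose over both diets (2.95% of all genes), 18 had a negative and 4 a positive interaction (60.3% positive over all genes), and the median interaction was -0.08 with median responses of 0.46 in CON and 0.32 in HFD. This median rested on single libraries, with -0.03 when CON-pre replicate 1 was left out, -0.04 when CON-pre replicate 2 was, -0.05 when HFD-pre replicate 4 was, -0.12 when CON-post replicate 2 or HFD-post replicate 2 was, and -0.15 when CON-pre replicate 4 was. Angptl4, Pnpla2 and Plin2, further PPAR targets, had interactions of -0.03, -0.06 and -0.00. The 26 genes of fatty acid oxidation itself were even, with 13 interactions of either sign and a median of -0.00, whose sign turned in 7 of the 16 fits that left out a library and with an adipocyte score as a covariate.

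**Figure D3:**
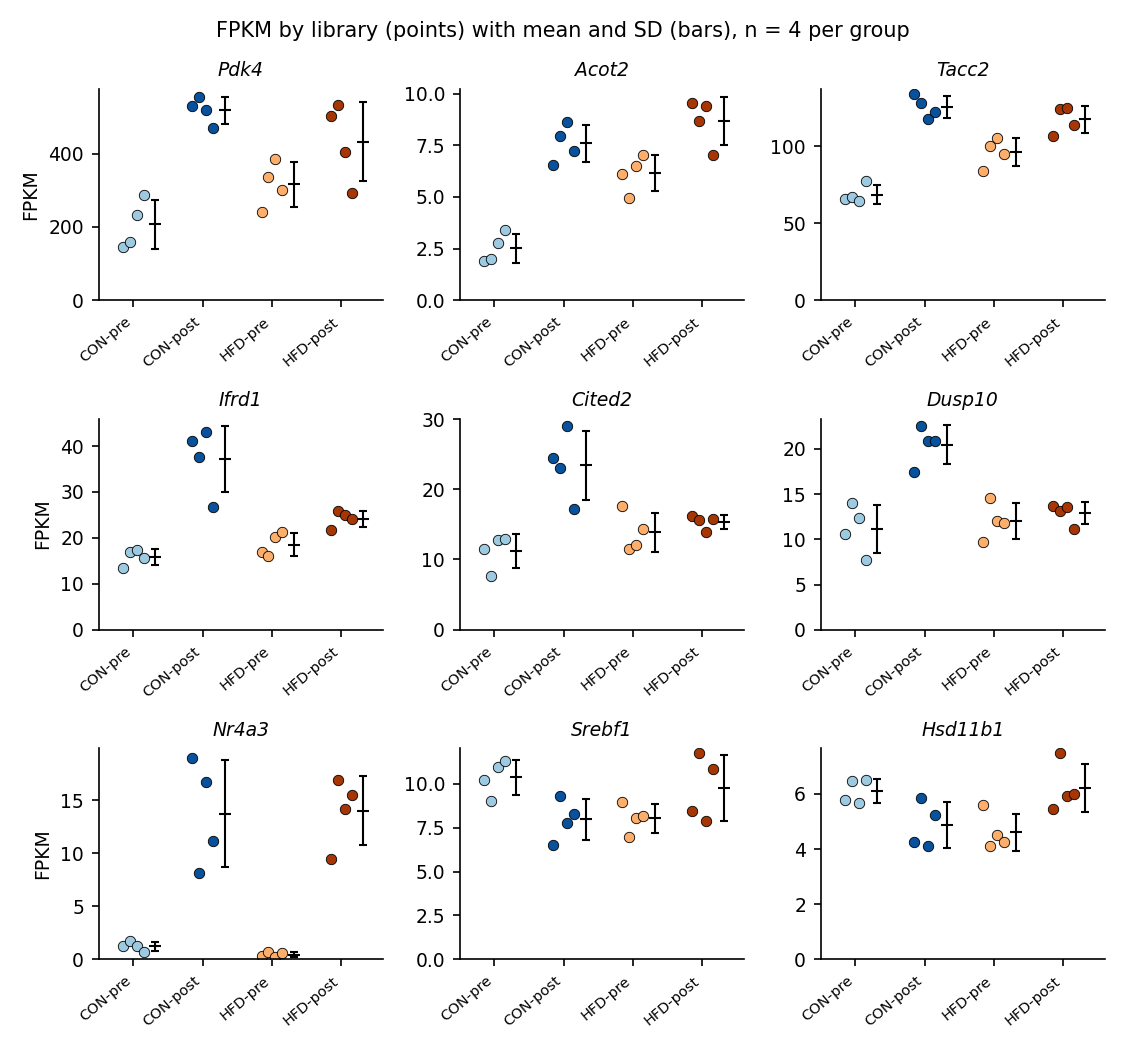
FPKM of 9 genes in the 16 libraries (points, one per mouse) with the mean and SD of each group (bars, n = 4), y axes from 0. In the upper rows (Pdk4, Acot2, Tacc2, Ifrd1, Cited2 and Dusp10) the step from pre to post is larger in CON than in HFD, whereas Nr4a3 rises from a lower start in HFD and Srebf1 and Hsd11b1 have opposite steps in the 2 diets.

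In Cited2, Dusp10 and Ifrd1 the larger part of the interaction lay after exercise, with differences between diets of 0.30, 0.12 and 0.22 before it and of -0.57, -0.65 and -0.59 after it. Their promoters, chosen after the values were seen, are shown because all 3 are regulators with a smaller response in HFD by point estimate. For none of the 3 did the interaction pass the limma test after adjustment. Cited2 encodes a transcriptional coregulator, Dusp10 a phosphatase that inactivates p38 and JNK, and Ifrd1 a transcriptional coregulator of muscle differentiation and regeneration. The sequences are the 250 bases before the start site in RefSeq GRCm38.p6, with matches to the GC box (GGGCGG, a site of Sp and Krüppel-like factors) and to the Egr motif (GCGNGGGCG), searched on both strands, in capitals. The windows are chr10:17722978-17723227 on the plus strand for Cited2, chr1:184034131-184034380 on the plus strand for Dusp10, and chr12:40223190-40223439 on the minus strand for Ifrd1.
Cited2: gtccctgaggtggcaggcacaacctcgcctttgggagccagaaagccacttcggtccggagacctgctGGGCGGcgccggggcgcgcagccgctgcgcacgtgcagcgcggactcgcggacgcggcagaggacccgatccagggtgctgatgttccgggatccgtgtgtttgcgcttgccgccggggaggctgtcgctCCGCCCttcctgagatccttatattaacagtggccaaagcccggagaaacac
Dusp10: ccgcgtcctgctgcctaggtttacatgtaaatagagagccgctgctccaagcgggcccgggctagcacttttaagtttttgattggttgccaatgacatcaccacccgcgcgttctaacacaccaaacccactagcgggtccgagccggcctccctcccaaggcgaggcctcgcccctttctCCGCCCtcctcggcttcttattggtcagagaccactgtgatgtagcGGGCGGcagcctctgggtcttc
Ifrd1: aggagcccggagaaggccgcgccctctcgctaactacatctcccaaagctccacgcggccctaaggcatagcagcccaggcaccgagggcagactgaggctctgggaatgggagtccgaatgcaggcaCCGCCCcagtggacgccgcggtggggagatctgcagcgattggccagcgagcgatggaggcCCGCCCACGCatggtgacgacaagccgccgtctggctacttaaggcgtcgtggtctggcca

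The GC boxes began 182 and 52 bases before the start in Cited2, 68 and 22 in Dusp10, and 122 and 61 in Ifrd1, where the second overlapped an Egr match. Such letters are common. In windows of 250 bases before to 50 after the start, a GC box was found in 35.7% of all 32851 windows and in 69.6% of the 8486 tested genes that had a window. It was found in 75.4% of the 256 genes that rose and had a window, in 63.6% of the 33 of these that were smaller in HFD at an unadjusted p under 0.05, and in 77.1% of the other 223. The Egr motif was held by 15.2% of those 33 and 13.5% of the other 223, a cyclic AMP response element (TGACGTCA) by 6.06 and 3.14%, an AP-1 site (TGANTCA) by 9.09 and 6.73%, and an E-box (CACGTG) by 12.1 and 14.8%. These shares are descriptions and were not tested.

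Cited2 had FPKM of 11.4, 7.67, 12.7 and 13.0 in CON-pre and 24.4, 23.0, 29.0 and 17.2 in CON-post, but 17.6, 11.4, 12.1 and 14.3 in HFD-pre and 16.2, 15.6, 13.9 and 15.7 in HFD-post. The CON groups were apart and the HFD groups overlapped. The response was 1.03 in CON (limma adjusted p = 0.00398) and 0.16 in HFD (adjusted p = 0.763), with an interaction of -0.87 ± 0.24 (SE; 95% interval -1.38 to -0.36). Dusp10 had FPKM of 10.6, 14, 12.3 and 7.73 in CON-pre and 17.4, 22.6, 20.9 and 20.9 in CON-post, against 9.73, 14.6, 12 and 11.8 in HFD-pre and 13.7, 13.1, 13.6 and 11.1 in HFD-post. Again the groups were apart in CON alone, with responses of 0.87 and 0.10 and an interaction of -0.77 ± 0.21 (SE). Ifrd1 had FPKM of 13.4, 17.0, 17.3 and 15.5 in CON-pre and 41.1, 37.7, 43.1 and 26.8 in CON-post, against 16.9, 15.9, 20.1 and 21.2 in HFD-pre and 21.7, 25.8, 25.1 and 24.1 in HFD-post. Here the groups did not overlap in either diet, but all HFD-post libraries lay below all CON-post libraries. The responses of Ifrd1 were 1.19 and 0.38 and the interaction was -0.81 ± 0.19 (SE).

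Dusp10 belonged to the MAP kinase phosphatases, of which 7 of 8 had a negative interaction (median -0.16), against 60.3% positive over all genes. Among them, Dusp1, the classical immediate early phosphatase, was at -0.70. Tacc2, a centrosomal and microtubule-binding protein, was chosen with its values known, as it had the lowest unadjusted p of all genes. Its FPKM were 65.8, 66.8, 64.5 and 77.5 in CON-pre, 134, 128, 118 and 122 in CON-post, 84.2, 100, 106 and 95.1 in HFD-pre and 107, 124, 125 and 114 in HFD-post. Neither diet had overlapping groups, and HFD-pre stood above CON-pre. The interaction of Tacc2 was -0.58 ± 0.12 (SE; 95% interval -0.82 to -0.34), with a limma adjusted p of 0.926. Enah, an actin regulator, rose in both diets, by 1.78 in CON and 0.96 in HFD, with an interaction of -0.82.

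Early response factors had smaller responses in HFD by most point estimates. Of 18 members tested, 9 rose over both diets, against 2.95% of all genes. A negative interaction was found in 16 and a positive one in 2, against 60.3% positive over all genes, with a median interaction of -0.32 and median responses of 0.85 in CON and 0.28 in HFD. Fos, a subunit of AP-1, had FPKM of 1.58, 1.38, 1.39 and 1.02 in CON-pre, 7.58, 4.60, 11.7 and 2.65 in CON-post, 1.69, 1.95, 1.06 and 1.68 in HFD-pre, and 1.51, 3.93, 2.32 and 1.45 in HFD-post. The CON groups were apart and widely spread after exercise, and the HFD groups overlapped. Its interaction was -1.43 ± 0.47 (SE), with a 95% interval of -2.42 to -0.44. Csrnp1, a nuclear protein induced by growth signals, had responses of 1.36 and 0.33 and an interaction of -1.03 ± 0.28. The stress factor Atf3 rose in both diets, by 3.08 and 2.24, with an interaction of -0.84 (95% interval -1.88 to 0.21) that was -0.55 without HFD-post replicate 1. Jun, Myc and Egr1 had interactions of -0.33, -0.32 and -0.25, all with intervals that held 0. That of Jun ranged from -0.59 without CON-pre replicate 4 to -0.17 without CON-pre replicate 2, that of Myc from -0.52 without HFD-pre replicate 4 to -0.12 without HFD-pre replicate 2, and that of Egr1 from -0.52 without CON-post replicate 4 to 0.08, with its sign turned, without HFD-post replicate 1.

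Nr4a3, the orphan nuclear receptor NOR-1, was 1 of the 2 early response factors with a positive interaction. It had FPKM of 1.21, 1.71, 1.21 and 0.675 in CON-pre, 19.0, 8.10, 16.8 and 11.1 in CON-post, 0.282, 0.680, 0.210 and 0.562 in HFD-pre, and 9.45, 16.9, 14.2 and 15.5 in HFD-post. The groups after exercise overlapped between diets, while HFD-pre lay below CON-pre with the exception of replicate 2 of HFD-pre, at 0.680 against 0.675 in the lowest CON-pre library. The rise was 3.03 in CON (limma adjusted p = 3.24e-05) and 3.96 in HFD (adjusted p = 6.13e-07), with an interaction of 0.93 ± 0.37 (SE; 95% interval 0.15 to 1.71). A difference of this kind between values near the pseudocount depends on it, and over all alternatives the interaction of Nr4a3 ranged from 0.68 to 1.40.

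Ppargc1a, the coactivator PGC-1α, rose in both diets. It had FPKM of 6.28, 6.57, 6.42 and 7.11 in CON-pre, 35.1, 18.8, 34.8 and 24.6 in CON-post, 4.90, 4.87, 4.84 and 4.18 in HFD-pre, and 14.5, 25.1, 26.5 and 23.0 in HFD-post. The HFD-pre libraries all lay below CON-pre, and the post groups overlapped. The response was 1.98 in CON (limma adjusted p = 4.38e-05) and 2.10 in HFD (adjusted p = 2.87e-05), with an interaction of 0.12 (95% interval -0.44 to 0.68), whose sign turned without CON-post replicate 2 (-0.06). Of the 14 PGC-1 coactivators and mitochondrial biogenesis factors, 10 had a negative interaction, against 60.3% positive over all genes. Perm1, a PGC-1 target in muscle, was at -0.35, and the median interaction of the 14 was -0.06. Their median ranged from -0.08 without CON-pre replicate 4 to -0.02 without CON-pre replicate 1, and was -0.10 after median-of-ratios scaling.

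**Figure D4:**
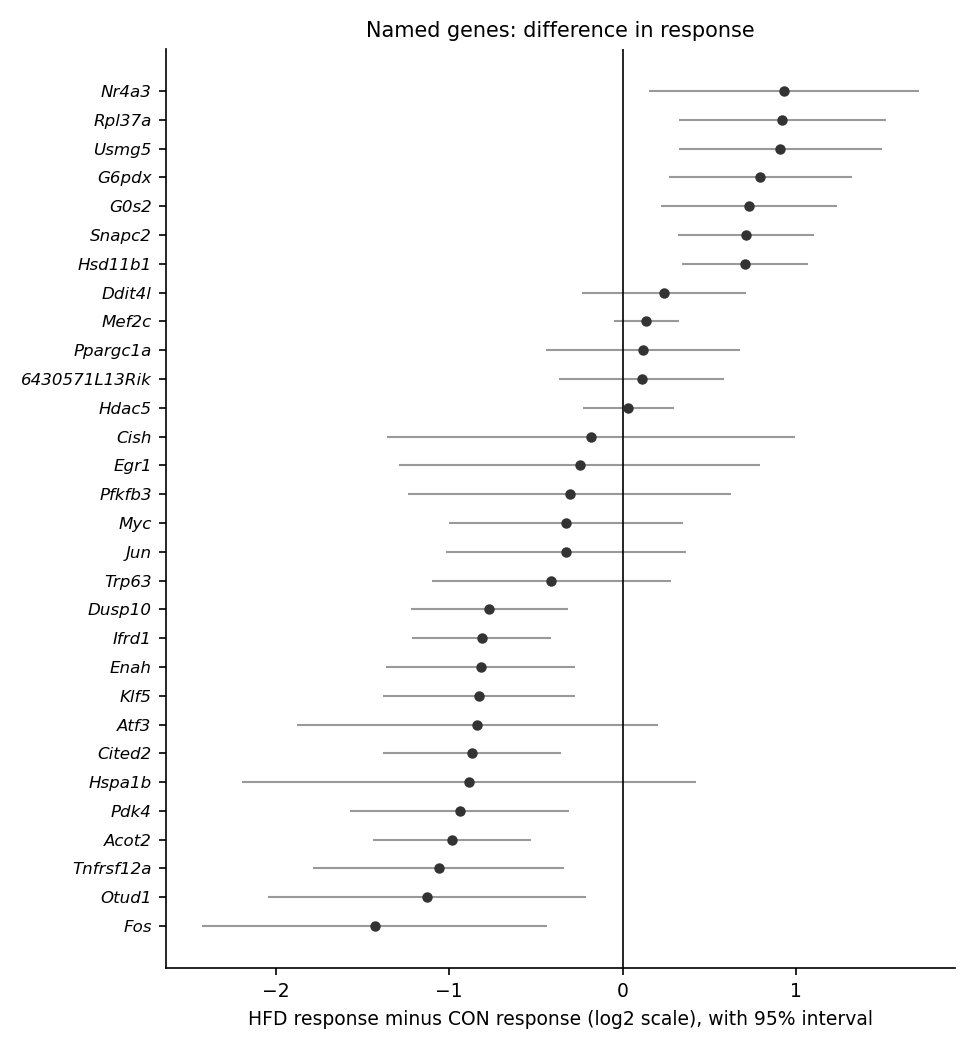
Interaction (HFD response minus CON response, log2 scale, x axis) with its 95% interval for 30 named genes in order of size; Amd1 and Gm6644 are left out for their scale. The line marks 0. Dusp10, Ifrd1, Enah, Klf5, Cited2, Pdk4, Acot2, Tnfrsf12a, Otud1 and Fos have intervals below 0 and Nr4a3, Rpl37a, Usmg5, G6pdx, G0s2, Snapc2 and Hsd11b1 intervals above 0, before any adjustment for 11256 tests. All of these but Dusp10, Klf5, Otud1 and Nr4a3 were chosen by an unadjusted interaction p under 0.01. For the genes so chosen an interval without 0 was set by the choice.

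Among other named regulators, Klf5, a Krüppel-like factor, had mean FPKM of 0.984 ± 0.249 (SD) in CON-pre, 2.77 ± 0.608 in CON-post, 1.49 ± 0.399 in HFD-pre and 1.96 ± 0.501 in HFD-post. Its response was 1.14 in CON (limma adjusted p = 0.00353) and 0.31 in HFD, with an interaction of -0.83, the lowest of the 12 Krüppel-like factors, whose median was -0.04 and turned to 0.04 without CON-pre replicate 1 or HFD-post replicate 1. Tnfrsf12a, the receptor of the cytokine TWEAK, had an interaction of -1.06 and Otud1, a deubiquitinase, of -1.13, with rises in CON of 1.69 and 2.91. Trp63 was at -0.41, Mef2c at 0.14 and Hdac5 at 0.03, with intervals that held 0, and the sign of Hdac5 turned under all 3 scalings. The largest falls, in Cish, Pfkfb3, Ddit4l and 6430571L13Rik, had interactions of -0.18, -0.31, 0.24 and 0.11, none with an interval free of 0, and the sign of Cish turned with the adipocyte covariate.

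Chaperones of the heat shock response had negative interactions in 20 of 26 cases, against 60.3% positive over all genes. Their median was -0.21, with median responses of 0.17 in CON and 0.07 in HFD, and 7 of the 26 rose over both diets (2.95% of all genes). The median was -0.11 without CON-pre replicate 4 and -0.14 without CON-post replicate 3. Hspa1b, an inducible Hsp70, had FPKM of 2.91, 3.02, 6.11 and 2.64 in CON-pre, 35.6, 29.3, 45.0 and 11.0 in CON-post, 2.77, 2.58, 1.98 and 5.15 in HFD-pre, and 6.71, 29.3, 10.5 and 11.1 in HFD-post. Pre and post groups were apart in both diets, and the post groups overlapped. Its interaction of -0.89 had a 95% interval of -2.19 to 0.42, and its near-identical copy Hspa1a, with which it may share reads, was at -0.87. Hspa8, the constitutive Hsc70, was at -0.31, and Bag3, a cochaperone of filamin turnover, at -0.36.

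The opposite pattern was found in genes of fatty acid and triglyceride synthesis. Of 18 tested, 16 had a positive and 2 a negative interaction, against 60.3% positive over all genes. The median was 0.30, with median responses of -0.28 in CON and 0.14 in HFD. The median remained between 0.24 and 0.37 under all alternatives. Srebf1, the master regulator of this programme, had FPKM of 10.2, 9.01, 10.9 and 11.3 in CON-pre, 6.51, 9.31, 7.77 and 8.29 in CON-post, 8.96, 6.96, 8.06 and 8.16 in HFD-pre, and 8.45, 11.8, 7.85 and 10.9 in HFD-post. Groups overlapped in both diets, with the highest CON-post library above the lowest CON-pre library. The interaction of Srebf1 was 0.61 ± 0.18 (SE; 95% interval 0.23 to 1.00), with responses of -0.36 and 0.25 that did not pass the test (limma adjusted p = 0.253 and 0.477).

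Further members of the list are given with both signs. Acacb, a mitochondrial acetyl-CoA carboxylase, and Mlxipl, the carbohydrate-responsive factor ChREBP, had interactions of -0.05 and -0.24. Scd1 and Scd2, stearoyl-CoA desaturases, had interactions of 0.71 and 0.65, Fasn, the fatty acid synthase, of 0.68, Acly, which supplies cytosolic acetyl-CoA, of 0.46 and Fads1, a desaturase, of 0.44. For Fasn, the CON-post mean of 6.38 FPKM had an SD of 3.8, while the HFD means were 2.41 before and 2.59 after exercise. The 3 genes of the list that rose over both diets were Acacb (0.23 in CON, 0.17 in HFD), Dgat2, which makes triglyceride (0.84 in CON, 0.99 in HFD), and Aacs, which activates acetoacetate (0.65 in CON, 0.76 in HFD). As adipocytes express the same programme, the adipocyte markers are given beside it. Of these markers, 12 of 14 had a positive interaction (median 0.27), against 60.3% over all genes. Their summed FPKM ranged from 741 to 989 in CON-pre, 725 to 1021 in CON-post, 810 to 958 in HFD-pre and 673 to 1323 in HFD-post. With an adipocyte score as a covariate, the median of the synthesis list was 0.32. That of the adipocyte markers, from which the score was made, was -0.02. The interaction of Srebf1 with this covariate was 0.51, the lowest of all alternatives, which reached up to 0.71. The part of adipocytes in the interaction of the list was not tested.

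Other named genes with positive interactions were of varied function. G0s2, an inhibitor of the lipase ATGL, had FPKM of 5.84, 7.27, 7.92 and 5.91 in CON-pre, 9.35, 6.01, 7.15 and 8.04 in CON-post, 7.74, 5.16, 8.02 and 8.57 in HFD-pre, and 16.4, 10.5, 15.9 and 13.5 in HFD-post. HFD-post lay above all other libraries. It rose in HFD by 0.89 (limma adjusted p = 0.0224), against 0.16 in CON, with an interaction of 0.73 ± 0.24 (SE). Hsd11b1, which regenerates active glucocorticoid, had FPKM of 5.79, 6.46, 5.66 and 6.51 in CON-pre, 4.24, 5.87, 4.13 and 5.24 in CON-post, 5.58, 4.11, 4.49 and 4.24 in HFD-pre, and 5.45, 7.49, 5.93 and 5.98 in HFD-post, and an interaction of 0.70 ± 0.17 (SE). Its levels went down in CON and up in HFD by point estimate, with overlap in both diets. G6pdx, the first enzyme of the pentose phosphate pathway, had an interaction of 0.79, Usmg5, a subunit of ATP synthase, of 0.91 and Rpl37a, a ribosomal protein, of 0.92.

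Snapc2, a subunit of the complex that starts small nuclear RNA transcription, and Zfp28, a zinc finger protein, were the 2 genes (0.0178%) whose pre and post libraries were apart in both diets in opposite directions, against 152 genes (1.35%) apart in the same direction. Snapc2 had FPKM of 4.49, 4.28, 5.20 and 5.59 in CON-pre, 2.43, 3.57, 3.43 and 4.20 in CON-post, 4.06, 3.78, 2.86 and 3.65 in HFD-pre, and 4.21, 4.19, 4.35 and 4.36 in HFD-post. The gap between the nearest libraries was narrow in both diets. The interaction of Snapc2 was 0.71 ± 0.18 (SE). Amd1 (4.76) and Gm6644 (-3.12) met the rule for named genes as well, but their values jumped between libraries of the same group, for Amd1 between 0.0365 and 10.6 FPKM within CON-pre, and Amd1 has a near-identical copy.

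Across the 22 lists of genes by function, 11 medians were positive and 11 negative, 15 lay within 0.1 of 0 and 19 within 0.2. Of the 575 members tested, 25 (4.35%) had an unadjusted p under 0.05, near the 3.16% of all genes, and none passed after adjustment. Both proportions lay below the 0.05 that the threshold passes on average where no gene has an interaction. The proteins of the cytosolic ribosome and the proteasome had small positive interactions that many members shared, 69 of 78 with a median of 0.17 and 32 of 37 with a median of 0.12, against 60.3% positive over all genes. Both medians remained positive under all alternatives, but fell to 0.08 without HFD-pre replicate 2 for the ribosome and 0.07 without CON-pre replicate 1 for the proteasome. The subunits of the respiratory chain (43 of 77 positive, median 0.01) and the genes of atrophy and autophagy (12 of 23, median 0.00) had medians whose sign turned under upper-quartile and median-of-ratios scaling, and that of atrophy and autophagy under quantile normalisation too. The TCA cycle (median -0.05), insulin, PI3K-Akt and AMPK signalling (0.04), glucose uptake, glycolysis and glycogen (0.05), the circadian clock (0.05), metallothioneins and antioxidant enzymes (0.04), fast-fibre contraction (0.06) and the myogenic and MEF2 factors (-0.06) had medians within 0.1 of 0. Single libraries moved each of these medians by over 1.5 times. That of metallothioneins and antioxidant enzymes turned to -0.04 without CON-post replicate 1, while the others kept their sign, with 0.02 without HFD-post replicate 4 and 0.13 without HFD-post replicate 1 for fast-fibre contraction, and -0.01 without HFD-post replicate 1 for the myogenic and MEF2 factors. Over all alternatives, the values nearest 0 were -0.02 without HFD-pre replicate 4 for the TCA cycle and 0.0086 without HFD-pre replicate 2 for the clock, and, after median-of-ratios scaling, 0.0011 for insulin signalling and 0.0063 for glucose. That of fast-fibre contraction was 0.0107 after quantile normalisation.

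Hypoxia and angiogenesis genes had a negative interaction in 14 of 18 cases, against 60.3% positive over all genes. Their median was -0.09, with -0.14 without HFD-pre replicate 3 and -0.05 without CON-post replicate 3. The medians of slow-fibre and cardiac contraction (0.15) and of the extracellular matrix (-0.09) depended on single libraries, ranging from -0.20 to 0.45 and from -0.24 to 0.10 as libraries were left out. In the slow-fibre list, Myh6, the cardiac myosin α heavy chain, had an interval of -0.61 to 1.46. Within these lists the members of lowest unadjusted p were Acad9 (0.16) in fatty acid oxidation, Slc2a1 (0.32), Trib1 (-0.46), Dld (-0.13), Cox7c (0.25), Psmb9 (0.75), Nfil3 (-0.48), Gadd45a (-0.37), Gclc (-0.32), Kdr (-0.40), Myoz1 (0.15) and Lamb1 (-0.21) in their respective lists. Of these, Nfil3, Gadd45a and Gclc alone had intervals without 0.

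**Figure D5:**
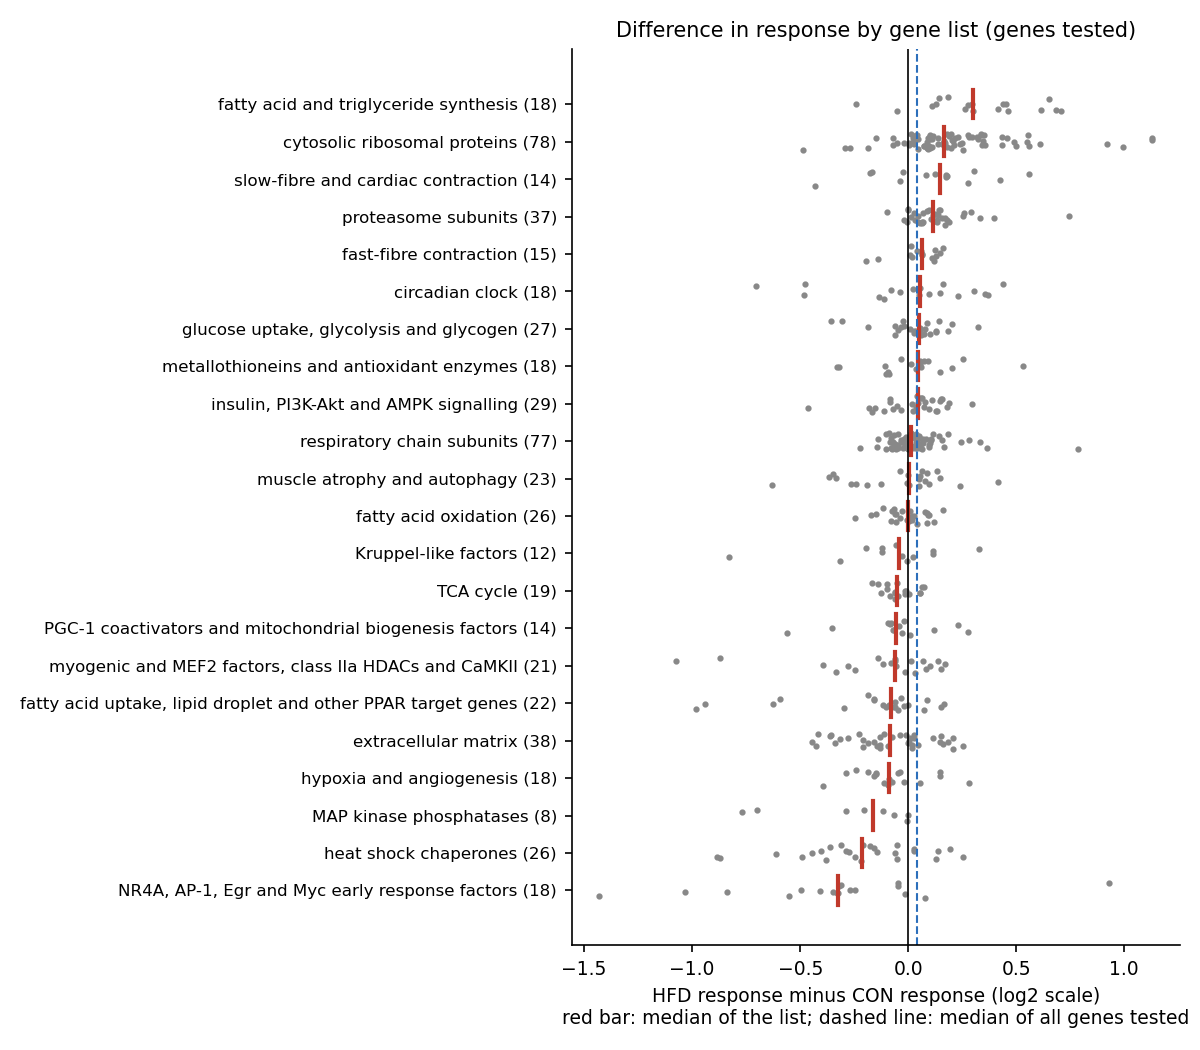
Interaction of each member tested (grey points, x axis, log2 scale) in 22 lists of genes by function (y axis, members tested in brackets), with the median of the list (red bar) and of all genes (dashed line, 0.04). The lists run from early response factors at -0.32 to fatty acid and triglyceride synthesis at 0.30, and 15 of the medians lie within 0.1 of 0.

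Markers of other tissues were examined for the same contrast, in which 60.3% of all genes were positive. Blood (9 of 10 positive, median 0.49), tendon and cartilage (6 of 6, median 0.32) and skin (3 of 4, median 1.21) had positive medians and endothelium (2 of 8, median -0.18) and nerve (2 of 6, median -0.22) negative ones, while macrophage markers were at 0.03, with a sign that turned under all 3 scalings and values of -0.25 without CON-post replicate 1 and 0.25 without CON-post replicate 2. As libraries were left out, the median ranged from -0.16 to 0.93 for blood, from -0.02 to 0.54 for tendon and cartilage, and from 0.0034 to 0.50 for the adipocyte markers. The median of skin was 0.32 without HFD-post replicate 3, that of endothelium -0.08 without CON-pre replicate 2 and that of nerve -0.13 without CON-post replicate 3. The skin markers summed to between 0.48 and 40.3 FPKM among HFD-post libraries. The part of these tissues in the interaction was not tested.

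The same contrast can be read as the difference between diets after exercise minus that before it. The 108 genes that differed between diets over both time points (limma adjusted p under 0.05) had a smaller difference after exercise in 76 cases (70.4%), in 35 of 55 that were higher in HFD and in 41 of 53 that were lower. These counts come from the main fit alone, and their dependence on scaling and on single libraries was not examined. The median difference of the 108 genes, counted in its own direction, was 0.54 before and 0.50 after exercise. An unadjusted interaction p under 0.05 was found in 6 of the 108 (5.56%), against 3.16% of all genes. In none of the 108 was the interaction 1 or more, and in 92 the whole interval lay within 1 of 0. Ostn, which encodes the muscle-secreted peptide osteocrin and was named after its values were seen, had FPKM of 9.22, 10.6, 5.06 and 9.34 in HFD-pre and 3.01, 5.13, 4.32 and 4.25 in HFD-post, against 2.44, 4.37, 3.44 and 3.03 in CON-pre and 2.55, 3.02, 2.70 and 3.41 in CON-post. The diets were apart before exercise and overlapped after it, with an interaction of -0.78 ± 0.28 (SE).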

How the data were processed

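The authors prepared stranded mRNA libraries from quadriceps, used TopHat for alignment and Cufflinks for expression estimates, versions not given in the sources used here. They deposited FPKM, which adjust for transcript length and sequencing depth and hold no read counts. All columns of sample values were used (0 were left out). Of 24487 entries, 27 whose names had become dates (0.0771% of FPKM) were left out, 260 repeated symbols were summed, and 11256 of 23970 symbols had a mean of at least 0.5 FPKM; the other 12714 were not tested. Depth is not known from FPKM, but low genes gave relative depths of 0.693 to 1.14, with group medians of 1.01 in CON-pre, 0.818 in HFD-pre, 1.01 in CON-post and 0.893 in HFD-post. Libraries correlated at 0.966 to 0.984, and the 10 most abundant genes took 29.2 to 36.5% of FPKM.

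For the interaction, limma 3.58.1 under R 4.3.3 was used (mean-variance trend, Benjamini-Hochberg adjustment) on log2(FPKM + 0.5), in 1 fit of the 4 groups without covariates, from which all responses, standard errors and 95% intervals were taken. The exercise effect over both diets and, added after seeing the data, the diet effect over both time points chose the responsive genes. The code was tested on simulated data. Python 3.11.15 served for tables (pandas 2.3.3, numpy 2.4.6), statistics (scipy 1.17.1) and plots (matplotlib 3.10.9). Alternatives were pseudocounts of 0.1 and 1, no filter, a filter at 1 FPKM, 3 scalings, no trend, weights for arrays, blocking by replicate number, scores of adipocyte and slow-fibre genes as covariates, a threshold of 0.1, leaving out each library and, added after seeing the data, leaving out small RNA, ribosomal and predicted genes.

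Genes were named by rule: the 8 most positive and 8 most negative interactions among genes averaging 2 FPKM or more, with values above 0 in all libraries and an unadjusted p under 0.01 (49 genes met this), regulators the study names, the 4 largest rises and falls over both diets, and the member of lowest p in each list. Members, rule and lists were chosen with earlier results of these data known, and genes named outside the rule serve as examples. A gene that met the rule is not reported here and was not replaced. Positions are from RefSeq GRCm38.p6, since 721 of 721 loci listed by the study overlapped the gene of that name in this build, although mm9 is the build named by the Methods. Metabolite data were not used here.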

Additional observations from a re-analysis of the deposited data

Results flagged for a closer look

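Among 196 groups of 4 libraries of named genes, 11 held a library far from its 3 companions, and chance gives about 1 in 20 such groups. In CON-pre, the library apart was replicate 4 for Amd1 (10.6 FPKM against 0.0365 to 0.0516), Psmb9 (1.39 against 0.907 to 0.954), Hspa8 (124 against 153 to 158) and Gadd45a (14.2 against 12.2 to 12.5). It was CON-pre replicate 3 for Hspa1b (6.11 against 2.64 to 3.02), and CON-pre replicate 2 for Lamb1 (4.32 against 4.71 to 4.76). In HFD-pre it was replicate 4 for Ppargc1a (4.18 against 4.84 to 4.90) and Dld (105 against 91.0 to 93.1) and replicate 2 for Trib1 (3.55 against 2.47 to 2.59). In HFD-post it was replicate 3 for Mef2c (82.0 against 92.9 to 94.6) and replicate 1 for Myoz1 (1058 against 1240 to 1274).

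Snapc2 had pre and post libraries that did not overlap in either diet and moved in opposite directions, as in 2 of 11256 genes (0.0178%). How many such genes chance alone would give was not computed. Its interaction of 0.71 did not pass the limma test of the difference after adjustment.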

How the results depend on the processing

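The number of genes with an adjusted interaction p under 0.05 was 0 under every alternative with all 16 libraries, and between 0 and 1 when a library was left out, the genes being Nutf2-ps1 without CON-post replicate 4 (limma adjusted p = 0.0424) and Rpl34-ps1 without HFD-post replicate 4 (0.00943), both pseudogenes. The number with an unadjusted p under 0.05 was 311 to 476 (186 to 360 positive, 107 to 198 negative) as libraries were left out and 633 (444 and 189) with no filter, which added genes; the negative genes numbered 188 after upper-quartile scaling, 195 after median-of-ratios scaling and 216 after quantile normalisation. Exercise-responsive genes numbered 266 with the adipocyte score as a covariate, 779 at an adjusted p under 0.1 and 246 to 566 as libraries were left out, in which the share smaller in HFD was 46.3 to 71.0% and the slope 0.73 to 0.91. Of 1418 fits of the 49 named genes, 1406 kept the direction, and the lowest adjusted p was 0.0659. The interaction of Hdac5 turned to -0.0025, -0.0084 and -0.0148 under the 3 scalings, and that of Cish to 0.0828 with the adipocyte covariate. As libraries were left out, that of Ppargc1a ranged from -0.0591 to 0.3083, Egr1 from -0.5151 to 0.0812, Hdac5 from -0.0623 to 0.0938, Cish from -0.5566 to 0.1413 and 6430571L13Rik from -0.0345 to 0.2195. Without turning, that of Pfkfb3 ranged from -0.58 to -0.07, Ddit4l from 0.05 to 0.34, Trp63 from -0.65 to -0.25, Kdr from -0.54 to -0.19, Lamb1 from -0.30 to -0.12, Slc2a1 from 0.18 to 0.45, Myh6 from 0.15 to 0.68, Dld from -0.17 to -0.08 and Mef2c from 0.09 to 0.18. The cause of these shifts was not tested. The medians of 19 of 30 lists kept their sign throughout.

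Replicate numbers did not pair the samples: the deviations of same-numbered libraries correlated at -0.220 to 0.213 (median -0.0218), over 0.1 in 5 of 24 pairs. With a replicate block, 0 genes passed, 327 had an unadjusted p under 0.05 (218 positive, 109 negative) and 328 were exercise-responsive. With 4 mice in each group, the 95% interval of the median gene reached 0.37 to either side, and it was narrower in genes of high expression.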
